A study of Sus scrofa with 11 samples.

Results

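The genes of the mitogen-activated protein (MAP) kinase cascade, and the dual-specificity phosphatases (DUSP) that switch it off, were examined in pig muscle under a low protein (LP) and a high protein (HP) diet. Members were the probe sets of the array whose single gene symbol in the platform annotation names a MAPK, MAPKAPK, MAP2K, MAP3K, MAP4K or DUSP gene, together with the probe sets that the study's own list of differentially expressed transcripts names MAP4K4, MAP3K3 or MAPK8. This gave 43 of the 23999 probe sets tested and 27 of the 6765 genes with a single symbol. The annotation named 40 of the 43, and the other 3 (1 of MAPK8 and 2 of MAP4K4) were members only through the study's list. Each gene was read by its brightest annotated probe set, and its other probe sets are given beside it. In all, 15 genes had 1 probe set and 12 had more, which are lettered by their mean level with probe set a as the brightest.

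Purebred Duroc gilts, about 10 weeks old at the start, were fed an HP diet (217 g/kg crude protein, 13 g/kg lysine, 6 pigs) or an LP diet (128 g/kg crude protein, 7 g/kg lysine, 5 pigs) for 63 days, both diets having the same energy density. RNA of the *M. semimembranosus*, a muscle of the ham, was hybridised to 1 Affymetrix Porcine Genome array per pig, so the pig was the replicate. The sources used here do not give the pen, weight block or slaughter date of each pig, so their effects and that of the diet cannot be told apart. All 9 measured markers of skeletal muscle lay above the negative controls on all arrays.

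In the MAP kinase cascade each kinase phosphorylates and so activates the next, from MAP4K through MAP3K and MAP2K to the MAP kinases themselves, which fall into the ERK, JNK and p38 families. The MAP kinases act on transcription factors and on further kinases such as the MAPKAPK enzymes, and phosphatases of the DUSP family remove the activating phosphates. In skeletal muscle the cascade is known to respond to growth factors, contraction, cytokines and nutrient stress. The arrays measured transcript levels, not the phosphorylation by which these proteins are switched on.

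Of the 27 genes, 2 were lower in LP muscle and none was higher at the study's threshold, an unadjusted p of 0.05 or less (limma, two-sided). The lower genes were MAP4K4, a kinase at the head of the cascade that acts towards JNK, and DUSP7, a phosphatase of the ERK kinases. The 2 lower genes are 7.41% of the 27, where 3.16% of all 6765 genes were lower, 1.57% higher and 4.73% called in either direction, and in a list of this size the gap amounts to about 1 gene. By the exact permutation test, 4 of the 27 brightest probe sets passed, namely those of MAP4K4, DUSP7, MAP3K3 (lower) and MAP3K7 (higher). Over all probe sets 5.4% passed in either direction. That share was not taken over the brightest probe set of each gene, so it is not a like base. The smallest Benjamini-Hochberg adjusted p of any member was 0.908 in limma, and no probe set of the series passed an adjusted p of 0.05.

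The differences were small throughout. The median log2 difference (LP minus HP) over the 27 genes was -0.10, against -0.04 over all genes, and 19 of the 27 lay below 0, where 57.5% of all genes did (after quantile normalization 17 of the 27, with a median of -0.04). The 17 kinase genes had a median of -0.05 and the 7 DUSP genes a median of -0.14. For 16 of the 27 genes the 95% confidence interval of the difference lay wholly within 1.5-fold in either direction, and for 24 within 2-fold, so larger differences lay outside the interval of most members. Standard errors ran from 0.12 to 0.54 with a median of 0.15, which was below the median of 0.17 over all genes. The widest belonged to DUSP9 (0.54), MAPK13 (0.47), MAPK8IP1 (0.34) and MAPK8IP3 (0.31). DUSP9, MAPK13 and MAPK8IP1 lay above the negative controls on some arrays only, while MAPK8IP3 did so on all arrays.

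**Figure D1:**
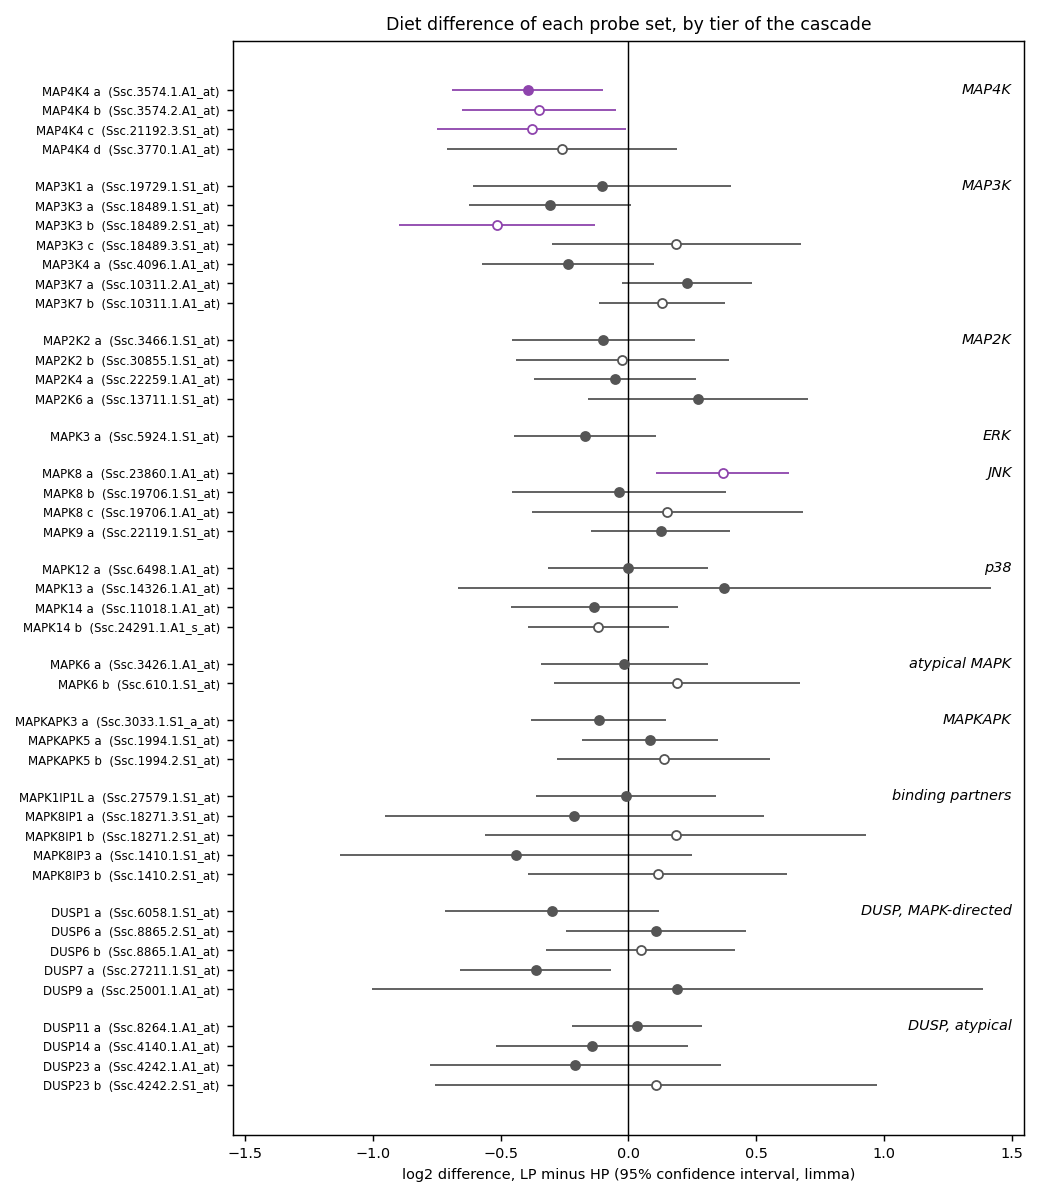
Log2 difference between the diets (x axis, LP minus HP) for the 43 probe sets, grouped by tier of the cascade, with 95% confidence intervals from limma. Filled points are the brightest annotated probe set of each gene, open points its other probe sets, and purple marks the 5 probe sets on the study's own list. The intervals of MAP4K4 probe sets b and c and MAPK8 probe set a, members only through that list, are for description only. The 4 probe sets of MAP4K4, probe sets a and b of MAP3K3 and that of DUSP7 lie to the left, MAP3K3 probe set c lies to the right, and most intervals span 0.

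Of the probe sets, 25 of the 43 lay below 0 (52.6% of all probe sets did) and 6 passed the threshold, 5 lower and 1 higher in LP, where 2.97% of all probe sets were lower and 2.15% higher. The study had drawn 5 of these 6 from the same 11 pigs. Of these 5, 3 were members only through its list, so their calls were set by the choice of members and say nothing further. The other 2, MAP4K4 probe set a and MAP3K3 probe set b, are also named by the annotation, but their calls are not independent of the study's. Of the 40 annotated members 3 passed, all lower, which is 7.5% of them, against 5.11% of all probe sets in either direction. Of the 38 members outside the study's list 1 passed, DUSP7, which is 2.63% of them. That share was lowered by leaving out members the study had called, so it has no like base here. In 39 of the 43 the level lay above the highest negative control on all arrays. The exceptions were the probe sets of MAPK13, DUSP9 and MAPK8IP1.

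MAP4K4 had 4 probe sets, and all of them had a lower mean in LP. The brightest, probe set a, read 10.59, 10.49, 10.46, 10.62 and 10.32 (log2 level) in the 5 LP pigs, while the HP pigs ran from 10.61 through a median of 10.91 to 11.23. The groups met at a single point, since the highest LP pig (replicate 4) was level with the lowest HP pig (replicate 3), and all 5 LP pigs lay below the HP mean. LP muscle averaged 10.50 ± 0.12 (SD, n = 5) and HP muscle 10.89 ± 0.24 (SD, n = 6).

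This was a log2 difference of -0.40 (standard error 0.13, 95% confidence interval -0.69 to -0.10), or 1.32-fold lower in LP. It passed in limma (p = 0.0137, adjusted p = 0.916) and in the exact permutation test (two-sided p = 0.0130). The probe set is also on the study's list, so its direction is not independent evidence. Without HP replicates 1, 2 and 4, a setting chosen after the data were seen, the difference was -0.27 and did not pass in limma. These 3 arrays had the highest level of the hybridisation spike-ins, control transcripts added to every sample, at 12.04 to 12.22 against 11.3 to 11.9 on the other arrays, and HP replicate 4 had both the highest spike-in level and the highest level on all 4 MAP4K4 probe sets. The part of the spike-in level in the MAP4K4 difference was not tested.

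The other MAP4K4 probe sets add the spread within the gene. Probe sets b and c carry the name only in the study's list, which was drawn on this contrast, so they are described without a test. On probe set b the LP pigs read 10.44, 10.42, 10.29, 10.63 and 10.22 against 10.48 to 11.09 in HP (median 10.76), a difference of -0.35, and LP replicate 4 lay above HP replicates 3 and 6. On probe set c the LP pigs lay within a narrow band of 8.31, 8.35, 8.24, 8.29 and 8.33, and the HP pigs between 8.36 and 9.29 with a median of 8.57, so that the groups did not overlap. Its difference was -0.38, and -0.26 without HP replicate 4. The same arrays gave 139 such probe sets, 0.579% of all, with no overlap in either direction and 0.329% with LP lower.

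The annotated probe set d gave the weakest MAP4K4 difference. It read 7.14, 7.38, 6.87, 7.06 and 7.24 in LP and 6.98 to 8.11 in HP (median 7.23), a difference of -0.26 (95% confidence interval -0.71 to 0.19) that did not pass (limma p = 0.228, exact permutation p = 0.262). HP replicates 1 and 4 stood above all other pigs, and without HP replicates 1, 2 and 4 the difference was 0.03. Its difference was not distinguishable from that of the brightest probe set (0.13 apart, exact permutation p = 0.437).

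**Figure D2:**
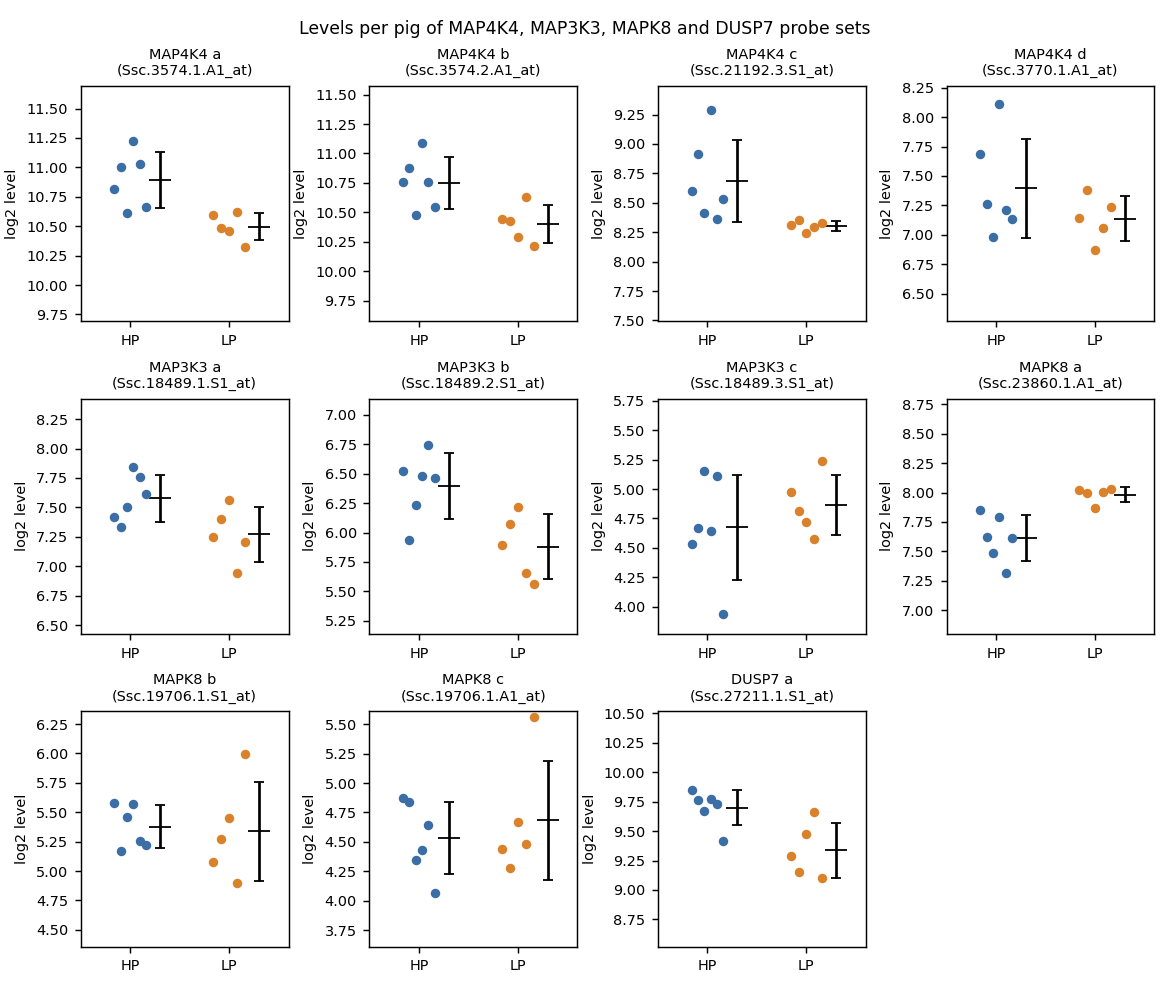
Log2 level (y axis) of each pig on the probe sets of MAP4K4, MAP3K3, MAPK8 and DUSP7, with HP pigs (n = 6) in blue and LP pigs (n = 5) in orange. Bars are the mean and SD, and every panel spans the same number of log2 units. The LP pigs lie low on MAP4K4 probe sets a to c, on DUSP7 and on the brighter MAP3K3 probe sets. Among those of MAPK8 they lie high on probe set a alone. On MAP4K4 probe set d the groups overlap apart from HP replicates 1 and 4.

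At the MAP3K tier none of the 4 genes passed in limma by its brightest probe set, and the median difference was -0.17. MAP3K3, also known as MEKK3, was read by 3 probe sets that did not run alike. The brightest, probe set a, read 7.24, 7.40, 7.56, 6.94 and 7.20 in LP and 7.33 to 7.85 in HP (median 7.56), and LP replicates 2 and 3 lay within the HP range. Its difference of -0.31 (standard error 0.14, 95% confidence interval -0.62 to 0.01) missed the threshold in limma (p = 0.0560) and passed the exact permutation test (p = 0.0455). It also passed in limma after quantile normalization, without dim probe sets, with low values raised, without HP replicate 2 and without LP replicate 3.

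The MAP3K3 probe set b gave the largest difference of the 43 members. The LP pigs read 5.90, 6.08, 6.22, 5.65 and 5.57 and the HP pigs 5.93 to 6.74 (median 6.47), and HP replicate 2 alone fell within the LP range. The difference was -0.51 (standard error 0.17, 95% confidence interval -0.90 to -0.13), or 1.43-fold lower in LP (limma p = 0.0130, exact permutation p = 0.0152), and without HP replicates 1, 2 and 4 it was -0.60. It is on the study's list, so this call is not independent of the study's.

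The dimmest of the 3, probe set c, ran the other way with 4.97, 4.81, 4.72, 4.57 and 5.24 in LP against 3.94 to 5.16 in HP (median 4.65), a difference of 0.19 (95% confidence interval -0.30 to 0.68, limma p = 0.415, exact permutation p = 0.444). HP replicate 6 was the lowest pig and the groups otherwise overlapped. The gap between this probe set and the brightest (0.49) did not pass the exact permutation test (p = 0.0736), nor did that between probe set b and the brightest (-0.21, p = 0.0996). The call for MAP3K3 therefore depended on the probe set.

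MAP3K7, the kinase TAK1 of transforming growth factor β and cytokine signalling, had the smallest p among the genes with a higher mean in LP. Its probe set a read 8.96, 8.75, 8.82, 9.02 and 8.86 in LP and 8.48 to 8.95 in HP (median 8.64). HP replicate 1 alone lay within the LP range, and the other 5 HP pigs lay below all LP pigs. The difference of 0.23 (standard error 0.12, 95% confidence interval -0.02 to 0.48) did not pass in limma (p = 0.0726) and passed in the exact permutation test (p = 0.0368). It passed in limma without HP replicate 1, without HP replicates 1, 2 and 4 together, after quantile normalization and with low values raised. The dimmer probe set b differed by 0.13 (exact permutation p = 0.132).

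MAP3K4, which GADD45 proteins activate towards p38 and JNK, differed by -0.24 (95% confidence interval -0.57 to 0.10). MAP3K1, an activator of the JNK branch, differed by -0.10 (95% confidence interval -0.61 to 0.40), at a dim level of 3.39 to 4.46 over the 11 pigs. Neither passed in either test.

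None of the 3 MAP2K genes passed. MAP2K6, which phosphorylates p38, read 7.51, 8.10, 8.21, 8.13 and 8.17 in LP and 7.26 to 8.15 in HP (median 7.83). The upper 4 LP pigs formed a tight group level with the highest HP pig, LP replicate 1 lay low, and the difference was 0.27 (95% confidence interval -0.16 to 0.70, exact permutation p = 0.184). Without LP replicate 1 it was 0.40 and still did not pass in limma.

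MAP2K2, the kinase of ERK also called MEK2, differed by -0.10 on its brightest probe set (95% confidence interval -0.46 to 0.26) and by -0.02 on the other. MAP2K4, which phosphorylates JNK and p38, differed by -0.05 (95% confidence interval -0.37 to 0.27). The sign of both turned without HP replicates 1, 2 and 4, to 0.16 in each case.

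Among the MAP kinases no brightest annotated probe set passed. MAPK3, or ERK1, a classical growth factor kinase, read 8.09, 8.17, 8.20, 8.39 and 8.51 in LP and 8.18 to 8.64 in HP (median 8.50). Below the HP mean lay 4 of the LP pigs, and the difference of -0.17 (95% confidence interval -0.45 to 0.11) was within the spread of the pigs (limma p = 0.207, exact permutation p = 0.134).

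MAPK8, or JNK1, the stress-activated kinase, was read by 3 probe sets. On probe set a, which carries the name only in the study's list and was drawn on this contrast, the LP pigs read 8.02, 7.99, 7.87, 8.0 and 8.03 and the HP pigs 7.32 to 7.86 (median 7.62). The groups did not overlap, though the gap between LP replicate 3 and the highest HP pig was narrow. Over the whole array 139 probe sets (0.579%) had no overlap in either direction. As a description, this probe set was 1.29-fold higher in LP (log2 difference 0.37). The difference lay between 0.31 and 0.51 under the 20 alternatives run on it. These refit the values by which it was chosen and so add no support.

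The MAPK8 probe sets named by the annotation did not show this. Probe set b, the brighter of them, read 5.07, 5.28, 5.45, 4.90 and 5.99 in LP and 5.17 to 5.57 in HP (median 5.36). The LP pigs lay on both sides of the HP pigs, and the difference was -0.04 (95% confidence interval -0.46 to 0.38, limma p = 0.848, exact permutation p = 0.857). Probe set c differed by 0.15 (95% confidence interval -0.38 to 0.68, exact permutation p = 0.606), with LP replicate 5 the highest pig on both. The intervals of the annotated probe sets contain the value of probe set a, and which of the 3 reads the MAPK8 transcript best was not tested. MAPK9, or JNK2, differed by 0.13 (95% confidence interval -0.15 to 0.40), with 4 of 5 LP pigs above the HP mean.

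The p38 genes differed little. MAPK14, the widely expressed p38α, read 10.73, 10.67, 10.88, 11.13 and 10.29 in LP and 10.75 to 11.004 in HP (median 10.86), so that LP held both the highest and the lowest pig. It differed by -0.13 (95% confidence interval -0.46 to 0.19), and by -0.12 on its other probe set. MAPK12, the p38γ typical of skeletal muscle, differed by -0.00 (95% confidence interval -0.31 to 0.31, exact permutation p = 0.998) and was 0.04 after quantile normalization. MAPK13, the p38δ, lay above the negative controls in 3 of 6 HP and 5 of 5 LP pigs, and its difference of 0.37 had a 95% confidence interval of -0.67 to 1.42.

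MAPK6, the atypical kinase ERK3, differed by -0.02 on its brightest probe set (95% confidence interval -0.34 to 0.31) and by 0.19 on the other, and the sign of the brightest turned to 0.09 after quantile normalization. MAPKAPK3, a kinase activated by p38, differed by -0.12 (95% confidence interval -0.38 to 0.15), and MAPKAPK5, a partner of ERK3, by 0.08 (95% confidence interval -0.18 to 0.35). None of these probe sets passed either test.

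Of the genes named as MAP kinase binding partners, MAPK8IP3, a scaffold that links JNK to motor proteins, differed by -0.44 at a dim level (95% confidence interval -1.13 to 0.25, exact permutation p = 0.216), and by 0.11 on its other probe set. It passed in limma only without HP replicate 1 (-0.62). MAPK8IP1, another JNK scaffold, lay above the controls in 5 of 6 HP and 5 of 5 LP pigs on its brighter probe set and differed by -0.21 (95% confidence interval -0.95 to 0.53). MAPK1IP1L differed by -0.01 (95% confidence interval -0.36 to 0.34).

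Among the DUSP genes, DUSP7 was lower in LP. This cytoplasmic phosphatase acts on ERK, and its only probe set is not on the study's list. The LP pigs read 9.29, 9.15, 9.47, 9.66 and 9.10, and the HP pigs 9.42 to 9.85 with a median of 9.75. The overlap came from HP replicate 6, the lowest HP pig, since the other 5 HP pigs lay above all LP pigs.

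DUSP7 averaged 9.34 ± 0.23 (SD, n = 5) in LP muscle and 9.70 ± 0.15 (SD, n = 6) in HP muscle. The difference was -0.36 (standard error 0.13, 95% confidence interval -0.66 to -0.07), or 1.29-fold lower in LP (limma p = 0.0202, adjusted p = 0.947, exact permutation p = 0.0195). It did not pass in limma without LP replicate 2 (-0.32), without LP replicate 5 (-0.31) or without HP replicates 1, 2 and 4 together (-0.27).

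The other phosphatases of the MAP kinases did not pass. DUSP1, an early response phosphatase of the nucleus that acts on p38 and JNK, read 11.18, 11.40, 11.74, 11.23 and 11.31 in LP and 11.15 to 12.16 in HP (median 11.70). The HP pigs were spread widely, with HP replicate 5 the lowest pig of all and HP replicate 2 the highest. Its difference of -0.30 (95% confidence interval -0.72 to 0.12, exact permutation p = 0.145) was -0.40 and passed without HP replicate 5, and was -0.01 without HP replicates 1, 2 and 4, so that its size rested on these arrays.

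DUSP6, a feedback phosphatase of ERK that is itself induced by ERK activity, read 10.12, 10.40, 10.34, 10.43 and 9.84 in LP and 9.72 to 10.44 in HP (median 10.11), and the groups spanned nearly the same range. It differed by 0.11 (95% confidence interval -0.24 to 0.46) and by 0.05 on its other probe set (95% confidence interval -0.32 to 0.42). DUSP9 lay above the negative controls in 1 of 6 HP and 2 of 5 LP pigs, so no fold is given.

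The atypical DUSP genes, small phosphatases most of which lack the MAP kinase docking domain, differed by 0.03 (DUSP11, an RNA phosphatase), -0.14 (DUSP14) and -0.21 (DUSP23). None passed, and DUSP11 had a narrow 95% confidence interval of -0.22 to 0.29. The dimmer DUSP23 probe set differed by 0.11 and, with LP replicate 1 left out, the brighter by 0.00.

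**Figure D3:**
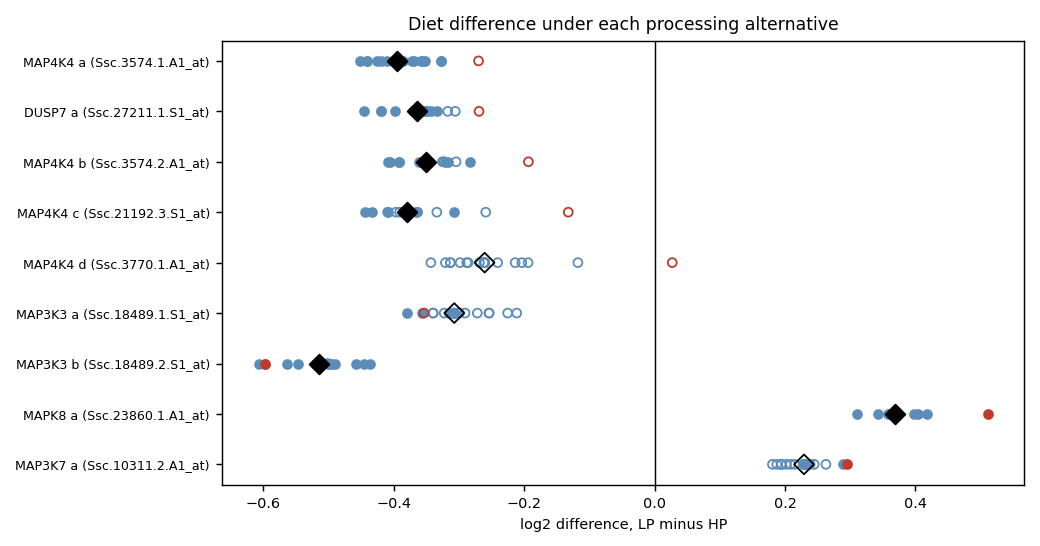
Log2 difference between the diets (x axis, LP minus HP) of 9 probe sets as deposited (black diamonds) and under each processing alternative (circles), filled where the p of that fit was 0.05 or less. For MAP4K4 probe sets b and c and MAPK8 probe set a the fill is no test, since the study's list chose them on this contrast. Red circles are the fits without HP replicates 1, 2 and 4, which bring MAP4K4 and DUSP7 nearer to 0 and move MAP3K3 probe sets a and b, MAPK8 probe set a and MAP3K7 away from it.

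The wider pathway was read from 5 lists of genes upstream and downstream of the kinases. Of 114 listed genes 48 were measured with a single symbol, and 3 were higher and none lower in LP by the brightest probe set, where 1.57% of all genes were higher and 3.16% lower. The 3 were DDIT3, ATF3 and CREB1, all of them transcription factors of the list of substrates and targets, and 2 of them (DDIT3 and ATF3) are known for their induction under stress. In that list 6 of 18 genes lay below 0 and the median was 0.26, against 57.5% below 0 and a median of -0.04 over all genes. The 18 include FOSL1, which lay above the controls in 1 of 6 HP and 3 of 5 LP pigs. Of the other lists, 10 genes upstream of the kinases had a median of -0.05 and 12 scaffolds and adaptors one of 0.06. The 5 inhibitors measured, of 22 listed, had a median of -0.14 and 3 downstream kinases one of -0.04. After quantile normalization the median of the upstream genes turned to 0.01 and that of the inhibitors was -0.04.

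DDIT3, also called CHOP, a target of p38 and of the response to amino acid shortage, read 9.66, 9.25, 9.71, 9.63 and 9.38 in LP and 8.61 to 9.26 in HP. Only HP replicate 3 reached the lowest LP pig. It was 1.59-fold higher (log2 difference 0.67, 95% confidence interval 0.33 to 1.0, limma adjusted p = 0.701). DDIT3 kept its side of the threshold under all 20 alternatives run on it. It is on the study's list, drawn from the same pigs, so its call is not independent of the study's and the refits add no support.

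ATF3, a stress-induced transcription factor downstream of JNK and p38, is not on the study's list. It read 10.33, 10.37, 11.40, 10.57 and 10.90 in LP and 8.72 to 10.76 in HP, with HP replicate 2 alone within the LP range. It was 1.93-fold higher (log2 difference 0.95, 95% confidence interval 0.20 to 1.70, limma p = 0.0179, adjusted p = 0.934, exact permutation p = 0.0303). With the replicate number as a block (0.74) it did not pass in limma.

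CREB1, which kinases downstream of ERK and p38 phosphorylate, read 7.28, 6.85, 7.15, 6.84 and 6.93 in LP and 6.58 to 6.97 in HP, with HP replicate 5 within the LP range. It was 1.23-fold higher (log2 difference 0.30, limma p = 0.0324, adjusted p = 0.962, exact permutation p = 0.0173). Its other probe set differed by 0.07 (exact permutation p = 0.628), and the call was lost under 9 of 21 alternatives, with differences down to 0.18.

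The early response genes FOS, EGR1, JUN, MYC, ZFP36, IER2 and IER3 of that list did not pass, and their differences had both signs. FOS differed by 0.81 (95% confidence interval -0.87 to 2.49), EGR1 by 0.58 (95% confidence interval -0.41 to 1.57), JUN by 0.28 (95% confidence interval -0.17 to 0.72) and MYC by 0.24 (95% confidence interval -0.10 to 0.57). ZFP36 differed by 0.06 (95% confidence interval -0.34 to 0.46), IER2 by -0.16 (95% confidence interval -0.49 to 0.18) and IER3 by -0.67 (95% confidence interval -1.51 to 0.18). FOSL2 (0.63, 95% confidence interval -0.40 to 1.66) and FOSL1 (1.38, 95% confidence interval -1.03 to 3.78) did not pass either. A dimmer FOSL1 probe set, above the controls in 1 of 6 HP and 3 of 5 LP pigs, differed by 1.05. It passed limma (p = 0.0364) and not the exact permutation test (p = 0.0606), and was singled out after its values were seen.

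All 5 measured inhibitors lay below 0 (4 after quantile normalization) and none passed by its brightest probe set, the lowest being PPP2CA, a catalytic subunit of the phosphatase PP2A, at -0.19 (95% confidence interval -0.49 to 0.11). A dimmer probe set of PPM1B, a phosphatase that acts on TAK1 and on JNK and p38 signalling, differed by -0.35 (limma p = 0.0327, exact permutation p = 0.0260), while its brightest differed by -0.14 and a further one by -0.01. This probe set was singled out after its values were seen. MRAS, a Ras-related GTPase of muscle, is on the study's list and differed by 0.24, which passed the exact permutation test (p = 0.0433) and not limma (p = 0.0790).

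**Figure D4:**
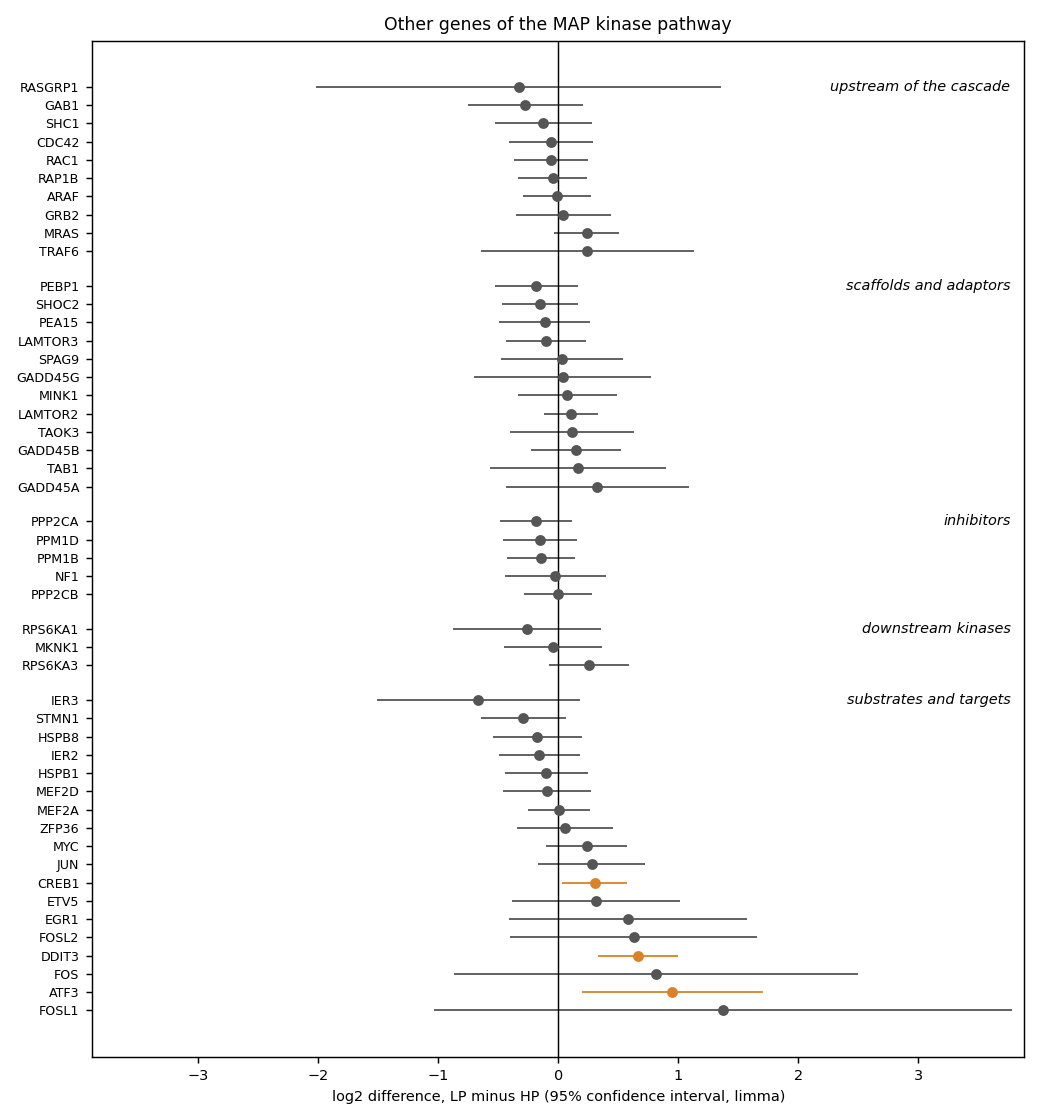
Log2 difference between the diets (x axis, LP minus HP) with 95% confidence intervals from limma for the 48 measured genes of the 5 lists around the cascade, each by its brightest probe set. Orange marks the 3 genes past the threshold, DDIT3, ATF3 and CREB1, all on the right and all in the list of substrates and targets.

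Measures of the arrays and markers of cell types are given here for comparison. All arrays had the same median, and 74.9% to 85.3% of probe sets lay above the negative controls. The spike-ins differed between LP and HP by -0.26 (exact permutation p = 0.186) and the 3′ minus 5′ signal of actin by -0.43 (exact permutation p = 0.123). The 9 skeletal muscle markers all lay below 0, with a median of -0.25, a mean level of 13.0 to 13.9 in HP and 13.1 to 13.5 in LP, and none past the threshold, and after quantile normalization 5 of the 9 lay below 0. Macrophage markers lay below 0 in 5 of 5 genes (mean level 6.70 to 8.06 in HP, 6.78 to 7.65 in LP), adipocyte markers in 2 of 6 (8.07 to 8.93 and 8.35 to 9.01), endothelial markers in 4 of 6 (8.47 to 8.98 and 8.48 to 8.92) and fibroblast markers in 3 of 5 (8.96 to 9.56 and 8.94 to 9.43). Among the latter DCN differed by -0.28, which passed the exact permutation test (p = 0.0346) and not limma (p = 0.0525), while LUM (0.08) and POSTN (0.25) lay above 0. The adipocyte marker with the largest difference, LEP, was higher in LP by 0.74. It passed neither test (limma p = 0.0533, exact permutation p = 0.0887).

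Of the smooth muscle and pericyte markers 3 of 5 lay below 0 (9.40 to 9.87 and 9.27 to 9.52), and RGS5, a pericyte gene on the study's list, differed by -0.44 (exact permutation p = 0.00866). In the same list CNN1 (0.12) and TAGLN (0.01) lay above 0. Lymphocyte markers lay below 0 in 1 of 7 genes (3.06 to 4.68 and 3.58 to 4.61), red blood cell markers in 1 of 3 (4.12 to 4.93 and 3.91 to 5.27) and nerve markers in 1 of 2 (5.55 to 7.13 and 5.95 to 7.16), and the red cell marker AHSP was above the controls on no array. Their part in the differences of MAP4K4, MAP3K3 and DUSP7 was not tested. The muscle was a mixture of cells, so fewer cells of a type and less RNA per cell cannot be told apart.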

How the data were processed

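The authors deposited log2 expression levels, 1 value per probe set and pig. Their methods name R, Bioconductor and puma, and the sources used here do not give the background and normalisation steps. All arrays share 1 median, so they had been scaled together. The authors' fold changes and P-like values were not used, and puma could not be run on the deposited levels. Groups follow the word High or Low in each sample's title, taken as the protein level of the diet.

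After 124 control probe sets were removed from the 24123, the remaining 23999 were tested. The platform annotation gave 1 symbol for 10069, several for 198 and none for 13732, and the gene IDs of all 40 annotated members matched RefSeq symbols. The members and the lists were chosen with earlier results of these data known, and the study's list with the paper in view. LP minus HP was fitted in R 4.3.3 with limma 3.58.1 (constant prior, two-sided) over all probe sets, and p values were adjusted over all of them by Benjamini-Hochberg. Exact permutation tests covered all 462 splits of the pigs into 6 and 5, where the smallest p is 0.00216. A probe set counted as above background where it exceeded the highest of 23 negative controls on that array. The number of arrays limits the precision. The fit was checked on simulated data.

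Genes named in the text were those with a probe set past the threshold, those on the study's list, the best known members, in each tier the gene with the largest difference above the controls, and the pathway genes past the threshold. Others were named to account for every member, or after their values were seen. As alternatives the arrays were quantile normalized or centred on their medians, dim probe sets (mean below the median) were dropped, low values were raised to the 20th percentile, limma was run with a trended robust prior, with array weights and with a block for the replicate number, single arrays were left out, the exact permutation test took limma's place, and genes were read by the average of their probe sets. A fit without HP replicates 1, 2 and 4, and a reading of genes that included the probe sets named only by the study's list, were added after the data were seen.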

Additional observations from a re-analysis of the deposited data

Results flagged for a closer look

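Of 92 groups of 5 or 6 pigs searched with Dixon's test, 4 held a pig far from the others, and chance gives about 1 in 20. For each the gap to the nearest pig is given as a share of the group's range. HP replicate 2 stood high on the dimmer MAP3K7 probe set b (8.06, the other HP pigs 7.73 to 7.82, share 0.743). LP replicate 1 stood low on MAP2K6 (7.51, the other LP pigs 8.10 to 8.21, share 0.843). LP replicate 3 stood low on MAPK8 probe set a (7.87, the other LP pigs 7.995 to 8.03, share 0.783). LP replicate 5 stood low on MAPK12, the p38γ of skeletal muscle (10.38, the other LP pigs 10.9 to 11.001, share 0.84). No array was singled out more than 1 time. The causes were not tested.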

How the results depend on the processing

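Over 22 alternative settings the 25 named probe sets gave 508 comparisons, of which 446 kept both direction and side of the threshold, 29 lost and 13 gained a call, and 20 turned sign, none of the latter past the threshold. The 25 include MAP4K4 probe sets b and c and MAPK8 probe set a, which the study's list chose on this contrast. Their refits add no support, and the counts of all member probe sets that follow include them too. A probe set far from the threshold keeps its side easily, so the tally is a description only. With HP replicates 1, 2 and 4 left out, a setting added after the data were seen, member probe sets past the threshold went from 1 to 3 higher and 5 to 1 lower (outside the study's list 0 to 2 and 1 to 0), member genes from 0 to 1 higher and 2 to 0 lower (MAP4K and MAP kinase DUSP tiers 1 to 0 lower each, MAP3K tier 0 to 1 higher), and pathway genes from 3 to 5 higher. Quantile normalization, raised low values and the exact permutation test each gave 2 member probe sets higher (1 outside the list, 1 gene, in the MAP3K tier), and these settings and leaving out dim probe sets gave 2 lower outside the list and 1 lower in the MAP3K tier. With the probe sets of the study's list included 1 gene was higher (MAPK8). That call came from MAPK8 probe set a and was set by the choice of members, so it is no further result. Leaving out each array in turn gave 1 to 3 member probe sets higher and 2 to 6 lower (0 to 2 and 0 to 2 outside the list), 0 to 1 genes higher and 1 to 3 lower, 2 to 5 pathway genes higher and 0 to 2 lower, 0 to 1 MAP3K genes in each direction, 0 to 1 binding partners lower and 0 to 2 MAP kinase DUSP genes lower. Signs turned for MAP4K4 probe set d (0.027), MAPK8 probe set b (0.025), MAP2K2 (0.16), MAP2K4 (0.16) and MAPK6 (0.093) without HP replicates 1, 2 and 4, for MAPK6 after quantile normalization (0.086), and with all probe sets averaged for MAPK8 (0.057) and MAPK6 (0.087). With single arrays left out MAPK8 ran from -0.20 to 0.072, MAP2K4 from -0.11 to 0.0056, MAPK6 from -0.083 to 0.077 and DUSP23 from -0.35 to 0.0019. The causes were not tested.

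The labels number the pigs within each diet. The deviations of same-numbered pigs from their diet mean had correlations of -0.07 to 0.08 over 5 pairs (none over 0.1, own number best in 2 of 5). With so few pairs, and no weight block given per pig, whether the numbers mark blocks cannot be told. With the replicate number as a block, which leaves HP replicate 6 without a partner, 3 member probe sets were lower instead of 5, and 1 pathway gene was higher instead of 3. MAP3K3 probe set b (-0.50), ATF3 (0.74) and CREB1 (0.29) did not pass there. MAP4K4 probe set c, a member only through the study's list, is also among those no longer counted (-0.41), which is given as a description and not as a test.

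Signal over background limited MAPK13, DUSP9 and MAPK8IP1. With 6 and 5 pigs the 95% confidence interval reached beyond 1.5-fold for 11 of the 27 genes.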
